A study of Mus musculus with 4 samples.

Results

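Single reads that carried at least 4 CpGs were used to ask how methylation was arranged along individual DNA molecules. They were all the reads with 4 or more called CpGs on the 19 autosomes, apart from 1 very deep stretch of chromosome 17, and they numbered 2251544 of the 19503320 reads with a CpG. Wild-type haematopoietic stem and progenitor cells (HSPCs) gave 525513 such reads, Sca1-BCL6Δ HSPCs 386733, wild-type mature B cells 873786 and Sca1-BCL6Δ mature B cells 465512. These were 10.6, 14.8, 10.5 and 12.9% of the reads of each library. Each read was classed as fully methylated, fully unmethylated or mixed. Libraries were compared at read start positions, defined by the first base and the strand of the read, and 54879 positions were covered in all 4 libraries.

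The DNA came from CBAxC57BL/6J mice. HSPCs were sorted from bone marrow as Sca1+Lin-, and mature B cells from peripheral blood as B220+. Expression was not measured in these libraries, so the sorted identities could not be checked by marker levels. BCL6 is a transcriptional repressor best known from germinal centre B cells. In Sca1-BCL6Δ mice a Bcl6 cDNA driven by the Sca1 promoter is designed to be on in HSPCs and to be cut out by Cre recombinase once Cd79a is expressed, whereas wild-type mice carry neither. The Sca1 promoter limits the model to cells that use it, and neither transgene expression nor its removal was measured here. Each of the 4 conditions was 1 library of DNA pooled from 6 to 9 mice. No condition had a replicate, so every test below compares the reads of 2 libraries, and genotype cannot be told apart from anything else that the pair of libraries of 1 genotype shared. SEs over autosomes and counts of autosomes describe spread within the libraries and leave out variation between libraries of 1 condition.

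CpG methylation in mammals is copied to the new DNA strand after replication, and neighbouring CpGs of an island are usually either all methylated or all free of methylation. At imprinted control regions the copy inherited from one parent is methylated and the other is not, so single molecules of both kinds occur side by side. Reads with both states can arise where methylation is being gained, lost or copied with errors. Reduced representation bisulfite sequencing (RRBS) reads the ends of restriction fragments. MspI cuts at CCGG and TaqI at TCGA, both before the CG, so the first CpG of each read is the CpG of the cut site itself.

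The reference sequences of 6 read positions are shown first, because the spacing of CpGs is what the patterns run along. The positions were matched to RefSeq promoter sequences (GRCm38.p6) by the spacing of their CpGs, and each sequence starts with the base before the cut. CpGs are in capitals, the first CG being that of the cut site. The Igf2r sequence lies at chr17:12769753-12769789 on the minus strand and the Trim26 sequence at chr17:36836975-36837011 on the minus strand. Those of Adcy4 (chr14:55784184-55784220), Nrsn2 (chr2:152376606-152376642), Sycp1 (chr3:102936162-102936198) and Cebpb (chr2:167688821-167688857) are also on the minus strand. All 6 lie upstream of the annotated start of their gene.
Igf2r: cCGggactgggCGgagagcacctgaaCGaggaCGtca
Trim26: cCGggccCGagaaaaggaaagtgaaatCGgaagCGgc
Adcy4: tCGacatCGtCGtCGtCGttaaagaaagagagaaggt
Nrsn2: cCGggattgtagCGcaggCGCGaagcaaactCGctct
Sycp1: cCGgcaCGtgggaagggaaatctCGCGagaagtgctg
Cebpb: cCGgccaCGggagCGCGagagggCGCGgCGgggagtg
Molecules of Igf2r and Trim26 were methylated at all of these CpGs or at almost none, those of Adcy4 and Nrsn2 often mixed both states, 36 of 40 reads of Sycp1 were methylated throughout, and 54 of 66 reads of Cebpb were free of methylation, with 1 methylated CpG in 10 more. Their read counts are given with the promoters.

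Coverage set the precision of all per-position values. The median was 8 and 6 reads per shared position in wild-type and Sca1-BCL6Δ HSPCs, and 13 and 7 in the corresponding B cells. This order of the 4 libraries (HSPCs, then B cells, wild-type first) is kept wherever 4 values are listed. At least 10 reads in each library were available at 5616 positions, and 35 positions had at least 20. Reads were not marked by molecular identifiers and no removal of duplicates was recorded, so intervals cover counting error only. Reads of 3 CpGs, just outside the choice of members, were mixed in 18.5, 12.1, 14.9 and 12.2% of cases in the 4 libraries, against 17.8, 11.5, 16.2 and 12.2% of reads with exactly 4.

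Most molecules were uniform, and the libraries of the 2 genotypes differed in how many were not. Over the 5616 positions with at least 10 reads in each library, the mean share of mixed reads was 16.98% in wild-type HSPCs (SE 0.20 over 19 autosomes) and 16.3% in wild-type B cells (SE 0.18). It was 10.2% in Sca1-BCL6Δ HSPCs (SE 0.15) and 12.3% in Sca1-BCL6Δ B cells (SE 0.15). Both wild-type libraries thus lay above both Sca1-BCL6Δ libraries. At positions with a level under 20%, the genotypes differed more at the cut-site CpG than at later CpGs, as given below. The part of the cut-site CpG in the mixed share was not tested. Fully methylated reads made up 5.71 and 5.83% in the wild-type and Sca1-BCL6Δ HSPC libraries and 4.36 and 5.09% in the B cell libraries (SE 0.15 to 0.17). Here Sca1-BCL6Δ B cells lay below wild-type HSPCs. Over all 54879 shared positions the share was 12.9 and 14.6% in HSPCs and 12.7 and 13.7% in B cells, wild-type first (SE 0.27 to 0.32). Both Sca1-BCL6Δ libraries lay above both wild-type libraries there.

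Most mixed reads had a single methylated CpG. Among HSPC reads these were 15.1% (wild-type, SE 0.17) and 8.93% (Sca1-BCL6Δ, SE 0.11), among B cell reads 14.6% (SE 0.15) and 10.7% (SE 0.10), and they accounted for 84.5, 76.6, 83.5 and 76.1% of all mixed reads at these positions. Reads with a single unmethylated CpG were 0.662, 0.528, 0.510 and 0.575%. Molecules with at least 2 CpGs of each state, the ones in which methylation changed along the read in more than 1 CpG, were 1.20, 0.727, 1.23 and 0.945%. The genotype order held in that small class too, with SEs of 0.042 to 0.074.

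**Figure D1:**
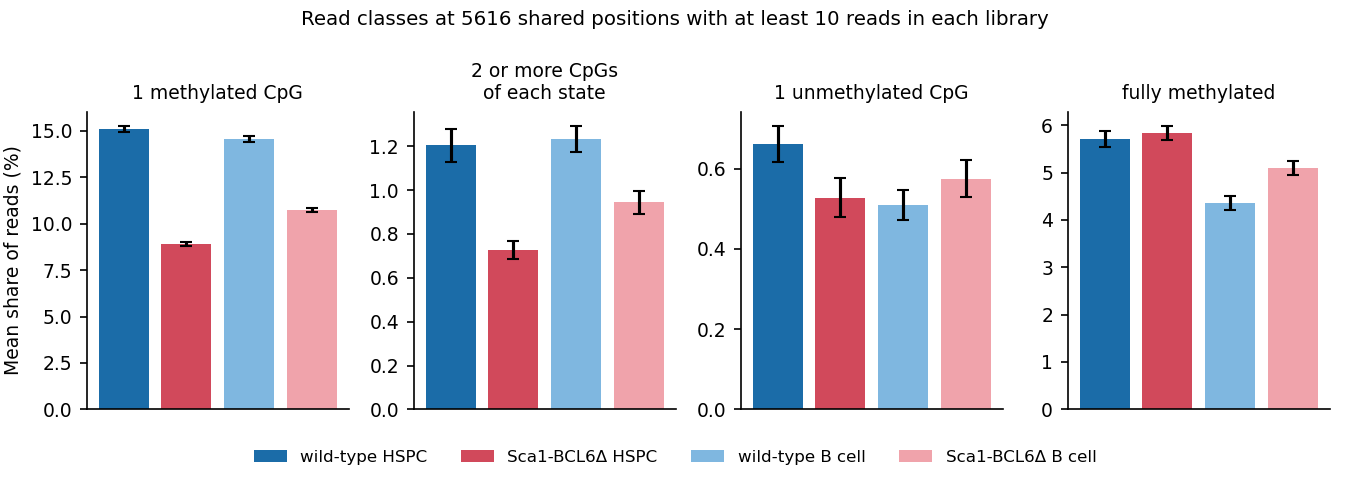
Mean share of reads (%) in 4 read classes at the 5616 shared positions with at least 10 reads in each library; bars are libraries, error bars are SEs over 19 autosomes, and each panel has its own axis from 0. Reads with 1 methylated CpG stood at 15.1 and 14.6% in the wild-type and 8.93 and 10.7% in the Sca1-BCL6Δ libraries.

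The HSPC genotype comparison asked how molecules differed in the cells meant to express the transgene. Relative to the wild-type library, the Sca1-BCL6Δ library differed in mean mixed share by -6.79 percentage points (SE 0.24), and its share was the lower on 19 of 19 autosomes. The fully methylated share differed by 0.126 points (SE 0.12), about its SE, and the sign of that difference turned with the setting (-0.0878 with at least 5 CpGs per read, 2.29 with at least 20 reads). No position of 5616 was called by the mixed share (0% called) or by the fully methylated share (0% called), where a call needed an adjusted p under 0.05 by Fisher's exact test, two-sided, with Benjamini-Hochberg adjustment, and a difference of at least 20 points. At an unadjusted p under 0.05, 221 positions passed by the mixed share, 16 higher and 205 lower in Sca1-BCL6Δ HSPCs, and 44 passed by the fully methylated share. The 221 and 44 positions are 3.94 and 0.783% of those tested. An adjusted p under 0.05 without the 20-point difference was reached at 2 positions by the mixed share (smallest 0.011) and 4 by the fully methylated share (smallest 1.5e-10) in the same Fisher's exact test, where the libraries differed by under 20 points.

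In B cells, in which Cre was to have cut the cDNA out, the direction was the same. The mean mixed share was lower in the Sca1-BCL6Δ library by a difference of -4.07 points (SE 0.17), again on 19 of 19 autosomes, while the fully methylated share was higher by 0.734 points (SE 0.087) on 18 of 19. By the mixed share 1 position was called (0.0178% of 5616) and by the fully methylated share 3 (0.0534%). At an unadjusted p under 0.05 by Fisher's exact test, 137 (2.44%) and 43 (0.766%) passed. An adjusted p under 0.05 was reached at 2 and 6 positions when no minimum difference was asked for. With the minimum raised to 20 reads the mean difference in mixed share turned to 1.36 points and that in fully methylated share to -2.36, over 35 positions only. With all reads pooled the fully methylated share was 3.32 points higher.

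From HSPCs to B cells the mixed share moved in opposite directions in the 2 genotypes. In wild-type mice it was -0.65 points (SE 0.22) in B cells relative to HSPCs, lower on 15 of 19 autosomes, and in Sca1-BCL6Δ mice it was 2.06 points (SE 0.16), higher on 19 of 19. At these 5616 positions fully methylated reads were fewer in B cells in both, by -1.35 points (SE 0.075) and -0.741 points (SE 0.11), on 19 and 18 of 19 autosomes. This direction turned for wild-type mice at the 35 positions with at least 20 reads (4.38 points) and for Sca1-BCL6Δ mice when all reads were pooled (1.04 points). Over all 54879 shared positions wild-type HSPCs and B cells had 12.9% (SE 0.27) and 12.7% (SE 0.31), and Sca1-BCL6Δ HSPCs and B cells 14.6 and 13.7%. At positions of 95% or more in the pair of the other genotype, B cells had more such reads. The difference was 15.2 points in wild-type and 1.66 points in Sca1-BCL6Δ mice, on 19 of 19 autosomes each. No position was called in either comparison by either share (0% called in each). At an unadjusted p under 0.05 by Fisher's exact test, the mixed share gave 275 positions (wild-type, 4.90%) and 73 (Sca1-BCL6Δ, 1.30%), and the fully methylated share 87 (1.55%) and 22 (0.392%). None of these shares, here or in the genotype comparisons, exceeded the nominal rate of that threshold. Without the minimum difference, an adjusted p under 0.05 was reached at 3 and 0 positions by the mixed share and at 1 and 1 by the fully methylated share. These comparisons share libraries with the genotype comparisons.

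**Figure D2:**
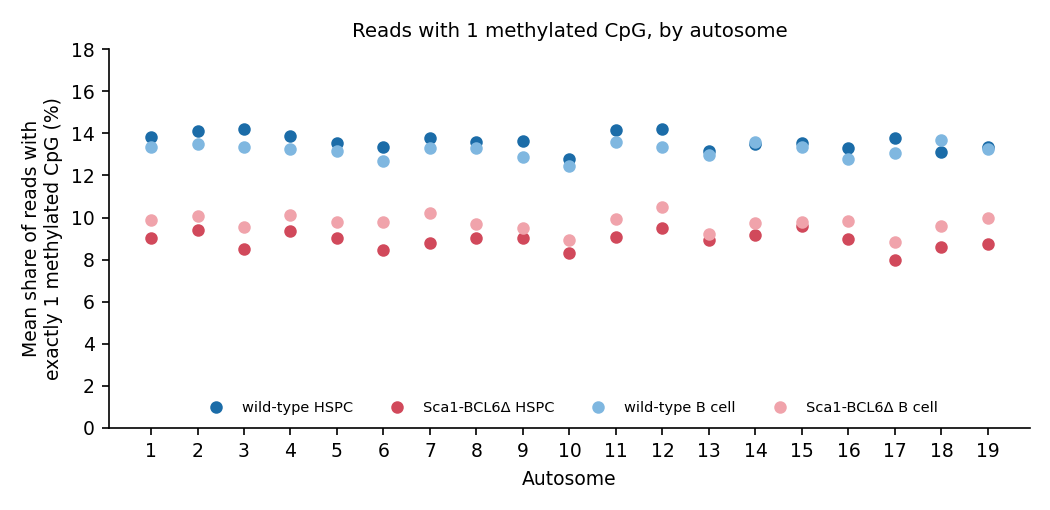
Mean share of reads with exactly 1 methylated CpG (%, vertical axis) on each of the 19 autosomes (horizontal axis) over all 54879 shared positions, 1 point per library. Wild-type points lie between 12.5 and 14.2% and Sca1-BCL6Δ points between 7.96 and 10.5%, without overlap on any autosome.

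To separate molecules of unmethylated and methylated regions, positions were classed by the mean methylation of their reads in the pair of libraries that was not being described. HSPC libraries were read in classes set by the 2 B cell libraries, and B cell libraries in classes set by the 2 HSPC libraries. By B cells 83.3% of the shared positions (45713) had a level under 20%, 6.34% (3480) a level of 20 to 80%, 2.45% (1343) of 80 to 95% and 7.91% (4343) of 95% or more. By HSPCs the numbers were 42853, 7015, 2647 and 2364. RRBS fragments with this many CpGs were thus mostly unmethylated.

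At positions under 20%, reads with a single methylated CpG set the libraries apart. They were 14.9% (SE 0.082) and 9.73% (SE 0.11) of HSPC reads, wild-type first, and 14.6% (SE 0.077) and 10.7% (SE 0.094) of B cell reads. The differences of -5.17 points in HSPCs (SE 0.11) and -3.97 points in B cells (SE 0.099) were found on 19 of 19 autosomes each. The share changed little with the number of CpGs that could have been the methylated one. Positions with 4 CpGs had 14.2% in wild-type and 9.44% in Sca1-BCL6Δ HSPCs, and positions with 7 or more had 16.1 and 10.5%. In B cells the values were 14.1 and 10.1% at 4 CpGs and 15.5 and 11.8% at 7 or more. On the plus strand the shares were 15.05 and 9.72% in HSPCs and 14.6 and 10.7% in B cells, and on the minus strand 14.8 and 9.74% and 14.7 and 10.7%.

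Methylation at the first CpG of the read exceeded that of all later CpGs. In the CpG tables, which pool all reads over a CpG, the CpG at the cut site of positions under 20% was methylated at 19.01% (SE 0.13) in the wild-type and 13.4% (SE 0.092) in the Sca1-BCL6Δ HSPC library. CpGs 2 to 33 bp further in had 5.74% (SE 0.063) and 5.47% (SE 0.10). In B cells the cut site had 16.3% (SE 0.13, wild-type) and 12.7% (SE 0.19, Sca1-BCL6Δ), against 4.09% (SE 0.084) and 4.99% (SE 0.16) further in. The step was therefore 13.3 and 7.93 points in wild-type and Sca1-BCL6Δ HSPCs and 12.2 and 7.75 points in B cells, in each library less than its share of reads with 1 methylated CpG. Beyond the first CpG no bin of 4 bp left the range from 5.31 to 6.03% in wild-type HSPCs or from 5.02 to 5.86% in Sca1-BCL6Δ HSPCs. At positions of 95% or more the first CpG was also higher, at 91.0% against 87.3% in wild-type and 97.6% against 96.0% in Sca1-BCL6Δ HSPCs. The cut-site CpG is also read from the fragment on its other side and by reads with fewer CpGs, so its level is not that of the member reads alone. Its part in the mixed share was not separated read by read, since the files give no state for each CpG of a read.

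**Figure D3:**
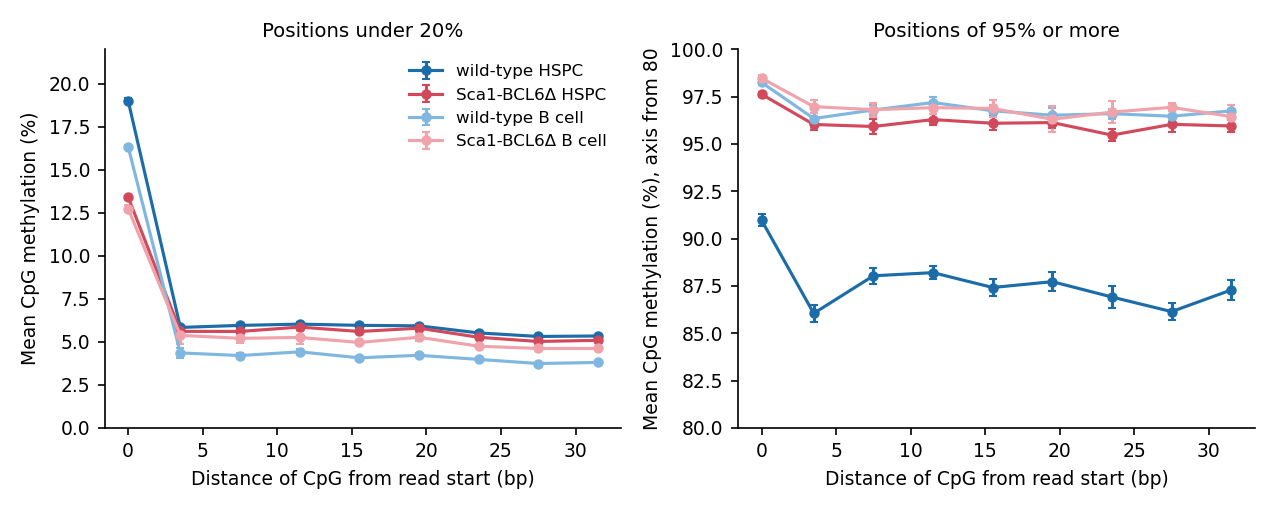
Mean methylation of CpGs (%, vertical axis) by distance from the read start (bp, horizontal axis) at positions under 20% (left, axis from 0) and of 95% or more (right, axis from 80); points are libraries in bins of 4 bp after the cut-site CpG, and error bars are SEs over 19 autosomes. At distance 0 the left panel has 19.01 and 16.3% in wild-type and 13.4 and 12.7% in Sca1-BCL6Δ libraries, and all libraries lie between 3.74 and 6.03% further in.

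Fully methylated molecules occurred at positions that were mostly unmethylated, with few molecules in between. At positions under 20% they were 5.28% (SE 0.069) and 5.57% (SE 0.093) of reads in the wild-type and Sca1-BCL6Δ HSPC libraries, and 3.11% (SE 0.038) and 4.13% (SE 0.044) in the B cell libraries. Among reads with 5 CpGs in wild-type HSPCs, 78.9% had no methylated CpG and 14.9% had 1. Only 0.863% had 2, 0.148% had 3 and 0.233% had 4, whereas 5.05% had all 5. Sca1-BCL6Δ HSPCs had 85.0, 9.21, 0.511, 0.0948, 0.203 and 5.01% with 0 to 5. The gap between the extremes was thus present in both HSPC libraries. These counts pool reads over positions, and fully methylated reads were not spread evenly over them. Of positions with at least 10 reads in wild-type HSPCs, 60.6% had no such read, against 53.1% under an even spread. Sca1-BCL6Δ HSPCs had 60.8 against 58.4%. Fully methylated reads became rarer as reads held more CpGs, from 6.13% at positions with 4 to 3.82% at positions with 7 or more in wild-type HSPCs. The corresponding shares went from 6.60 to 4.16% in Sca1-BCL6Δ HSPCs, from 3.62 to 2.26% in wild-type B cells and from 4.80 to 3.01% in Sca1-BCL6Δ B cells.

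At methylated positions the wild-type HSPC library stood apart from the Sca1-BCL6Δ HSPC and wild-type B cell libraries. It held more molecules there that were free of methylation altogether. Sca1-BCL6Δ B cells were not set beside wild-type HSPCs at common positions. At the 4343 positions of 95% or more in B cells, 75.1% of wild-type HSPC reads were fully methylated (SE 0.53) against 88.5% of Sca1-BCL6Δ HSPC reads (SE 0.31), a difference of 13.4 points (SE 0.61) on 19 of 19 autosomes. Fully unmethylated reads were 4.63% (SE 0.20) against 0.60% (SE 0.14), and reads with 1 methylated CpG 2.79% (SE 0.12) against 0.251% (SE 0.049). Reads with at least 2 of each state were 4.67% (SE 0.22) against 1.08% (SE 0.077). A single unmethylated CpG was closer in frequency, with 12.8% (SE 0.34) against 9.57% (SE 0.34).

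Counted over CpGs, 11.8% of the calls at these positions were unmethylated in wild-type and 3.48% in Sca1-BCL6Δ HSPCs. Of that difference of 8.30 points, 68.8% came from reads with no or 1 methylated CpG. Such reads were 7.18% of wild-type HSPC reads (0.763% in Sca1-BCL6Δ HSPCs). By definition they are unmethylated at all CpGs or all but 1, so a higher share of them necessarily gives more unmethylated calls. Wild-type B cells gave the same picture where positions were classed by the pair from Sca1-BCL6Δ mice. There 90.0% of wild-type B cell reads (SE 0.28) and 74.8% of wild-type HSPC reads (SE 0.46) were fully methylated, and 65.6% of the difference of 9.04 points in unmethylated calls came from reads with no or 1 methylated CpG. The 2 B cell libraries did not differ beyond their SE at positions of 95% or more in HSPCs, with 89.9% (wild-type, SE 0.45) and 90.2% (Sca1-BCL6Δ, SE 0.45) of reads fully methylated.

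**Figure D4:**
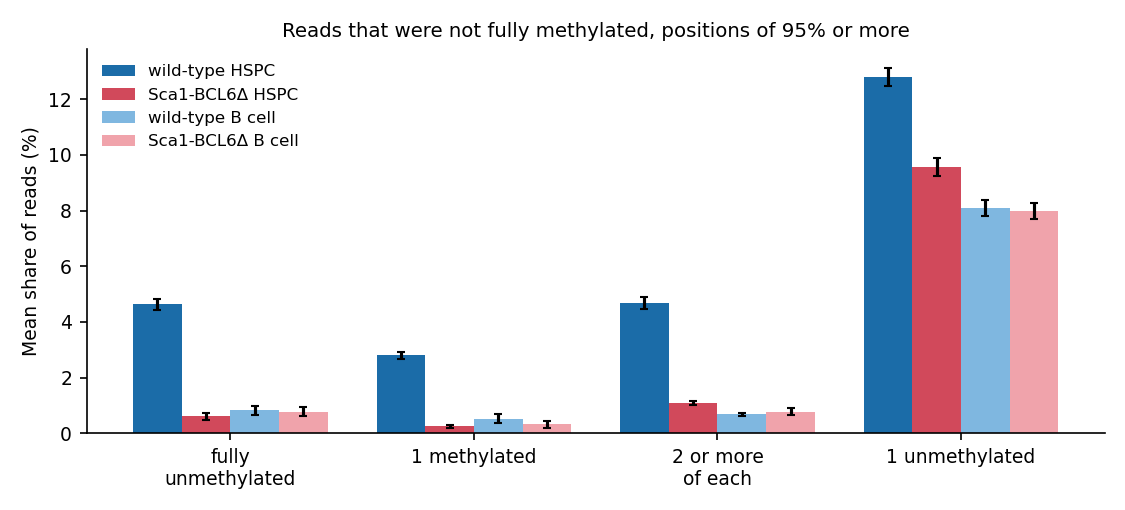
Mean share of reads (%) in the 4 classes other than fully methylated, at positions of 95% or more; HSPC libraries are shown at 4343 positions classed by B cells and B cell libraries at 2364 positions classed by HSPCs, with SEs over 19 autosomes. Wild-type HSPC bars exceed the others in every class, with 4.63% of reads fully unmethylated against 0.60 to 0.819%. The positions of the B cell bars were chosen as methylated in a pair that includes wild-type HSPCs.

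How alike CpGs of the same molecule were, relative to CpGs of different molecules, was put in 1 index. The index is 1 minus the chance that 2 CpGs of a read differ, divided by the chance that 2 CpGs from different reads of the position differ, so 0 means that CpGs of a read were no more alike than CpGs of different reads and 1 that every read was uniform. At positions of 20 to 80% with at least 5 reads the HSPC values were 0.527 (wild-type, SE 0.015) and 0.570 (Sca1-BCL6Δ, SE 0.015) over 952 positions, and the B cell values 0.488 (SE 0.012) and 0.549 (SE 0.011) over 1945 positions. At positions under 20% it was 0.533 and 0.669 in HSPCs and 0.432 and 0.586 in B cells, with SEs of 0.0031 to 0.0041. At positions of 95% or more the order in HSPCs was the other way round, at 0.474 (wild-type, SE 0.013) and 0.150 (Sca1-BCL6Δ, SE 0.023). B cells had 0.120 (SE 0.018) and 0.0951 (SE 0.023) there. The level of the positions moved with the index at 95% or more: the mean was 88.5% in wild-type and 96.7% in Sca1-BCL6Δ HSPCs. Under 20% the index also took in the cut-site CpG, where the genotypes lay furthest apart in level. That CpG stood at 19.01% (wild-type) against 13.4% (Sca1-BCL6Δ) for HSPCs, and at 16.3% against 12.7% for B cells. Later CpGs stood at 5.74% against 5.47%, and at 4.09% against 4.99%. How much of the index difference under 20% came from the cut-site CpG was not tested.

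The position called by the mixed share in B cells started at 75680056 of chromosome 7 (mm9, plus strand). In Sca1-BCL6Δ B cells 71.9% of its 57 reads were mixed (95% Wilson interval 59.2 to 81.9) and in wild-type B cells 11.6% of 43 (5.07 to 24.5), with an adjusted p of 3.3e-06 by Fisher's exact test. Wild-type HSPCs had 48.4% of 31 reads (32.0 to 65.2) and Sca1-BCL6Δ HSPCs 28% of 25 (14.3 to 47.6). The mixed reads of Sca1-BCL6Δ B cells were 37 with a single unmethylated CpG and 4 with more. The unmethylated CpG was not the same in all of them. The CpG at the cut site was methylated in 57 of 57 reads, and the next CpGs in 44, 47 and 48 of 57 and 42 of 55. It was also called by the fully methylated share.

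The other positions called in B cells by the fully methylated share differed in kind. The read start at 19149615 of chromosome 12 (minus strand) had fully methylated reads in 11 of 12 cases in Sca1-BCL6Δ (91.7%, interval 64.6 to 98.5) and 5 of 25 in wild-type B cells (20%, 8.86 to 39.1), with an adjusted p of 0.047 by Fisher's exact test. A single CpG, 23 bp into the read, carried the difference. It was methylated in 8 of 26 reads of wild-type and 12 of 12 of Sca1-BCL6Δ B cells, and in 11 of 22 and 7 of 10 reads of wild-type and Sca1-BCL6Δ HSPCs. At 149689613 of chromosome 4 (minus strand) 10 of 10 reads were fully methylated in Sca1-BCL6Δ (100%, interval 72.2 to 100) and 5 of 23 in wild-type B cells (21.7%, 9.66 to 41.9), with an adjusted p of 0.036 by the same test. In wild-type B cells 14 of those 23 reads were fully unmethylated, as were 11 of 22 in wild-type and 9 of 15 in Sca1-BCL6Δ HSPCs. Mixed reads were 4 of 23 in wild-type B cells, 3 of 22 in wild-type and 1 of 15 in Sca1-BCL6Δ HSPCs, and 0 of 10 in Sca1-BCL6Δ B cells. Most molecules there were thus uniform in either state, but the mixed share of wild-type B cells (17.4%) was near that library's mean of 16.3%. None of the 3 positions matched a promoter. All were lost when positions above the 99th percentile of depth in any library were left out.

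Promoters were examined by the CpG spacing of reads together with a shared shift between the builds. Of 40372 read windows of 36 bases with at least 4 CpGs at a CCGG or TCGA in RefSeq promoters (250 bases before to 50 after the start), 10931 had the CpG spacing of a shared position on the same chromosome and strand. A match was kept when at least 5 positions of the chromosome lay at exactly the same shift between the builds, and 2890 matches at other shifts were left out. This left 9028 shared positions (16.5%) at promoters of 5631 genes, 8836 at CCGG and 192 at TCGA, and no position had more than 1 such shift. Both kinds of cut site gave the same order of the genotypes for reads with 1 methylated CpG. At promoter positions under 20% reads with 1 methylated CpG were 14.6% in wild-type and 9.29% in Sca1-BCL6Δ HSPCs at CCGG, and 13.1 and 9.94% at TCGA. B cells had 14.1 and 10.05% at CCGG and 11.8 and 8.68% at TCGA, which rests on 152 positions.

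Promoter molecules were mostly unmethylated, and of the 5 gene lists examined the germ cell genes had the highest median share of fully methylated reads. Over all 5631 matched genes the median share of fully methylated reads, with the 4 libraries together, was 3.82%, and 61 genes (1.08%) had 50% or more. Of 43 listed genes that act in germ cells and meiosis 9 were matched, with a median of 81.4%, and 6 of them had 50% or more. Mael, a factor of the piRNA pathway, had 45 of 48 reads fully methylated. Sycp1, a component of the synaptonemal complex, had 52 of 60, Hormad1, a protein of meiotic chromosome axes, 60 of 72, Sohlh2, a germ cell transcription factor, 29 of 35, and Ddx4, an RNA helicase of germ cells, 57 of 70. The list's fully methylated share was 70.8% of 72 reads in wild-type HSPCs (interval 59.5 to 80.1) and 74.6% of 63 in Sca1-BCL6Δ HSPCs (62.7 to 83.7). B cells had 74.2% of 124 (65.8 to 81.1) in wild-type and 73.4% of 94 (63.7 to 81.3) in Sca1-BCL6Δ. The 4 intervals overlap. Dazl had 8 of 11 reads fully methylated, while Smc1b (4 of 18), Meioc (3 of 16) and Hspa1l (1 of 23) were below 50%. Of 24 imprinted genes 4 were matched, with a median of 19.9%, and 1 of them had 50% or more: Igf2r had 52 of 101 reads fully methylated over 3 positions, Hymai 15 of 40, Gnas 2 of 87 and Grb10 1 of 110. Their fully methylated share was 15.6% of 64 reads and 24.5% of 53 in wild-type and Sca1-BCL6Δ HSPCs, and 20.98% of 143 and 21.8% of 78 in B cells.

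Genes of blood cells had mostly unmethylated promoter molecules in all 4 libraries, as did the matched genes at large (median 3.82% fully methylated reads). Of 33 regulators of blood stem and progenitor cells 11 were matched, with a median of 1.59% fully methylated reads and 18.75% at most, in Cebpa. Those of Cebpa were 3 of 16 reads, all from wild-type B cells, and Bcl11a had 13 of 90. At the Cebpb position shown above, 12 of 16 reads were fully unmethylated in wild-type and 16 of 18 in Sca1-BCL6Δ HSPCs, 19 of 24 in wild-type and 7 of 8 in Sca1-BCL6Δ B cells. Nearly all its other reads had 1 methylated CpG, 3, 2, 4 and 1 in the same order. Cebpb encodes a transcription factor of myeloid cells. Its CpG at the cut site was methylated in 2 of 18, 1 of 19, 4 of 26 and 1 of 8 reads, and the next, 6 bp further in, in 1 of 18, 0 of 19, 1 of 26 and 0 of 8. Bmi1, Hhex, Id2, Runx1 and Zfpm1 had no fully methylated read among 13 to 53 each. Of 30 B cell genes 3 were matched, Bcl6, Irf4 and Tcf3, with a median of 7.5%, above that of all matched genes.

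Bcl6 itself was covered at its own promoter by 2 positions, whose reads cannot be told apart from reads of any transgene copy that holds the same bases. Fully unmethylated reads were 19 of 23 in wild-type HSPCs, 11 of 13 in Sca1-BCL6Δ HSPCs, 20 of 22 in wild-type B cells and 22 of 24 in Sca1-BCL6Δ B cells. None of the 82 reads was fully methylated. The 2 positions read opposite strands, and the counts of 0 in 32 and 50 reads allow shares of up to 9.38 and 6.0%. Molecules of the Bcl6 promoter were thus mostly unmethylated in all 4 libraries.

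Hox genes, which pattern the body axis, had a median of 3.34% over 8 matched genes of 39. Hoxa5 was unlike the others, with 40 of 45 reads fully methylated: 9 of 11 in wild-type HSPCs, 10 of 11 in Sca1-BCL6Δ HSPCs, 15 of 17 in wild-type and 6 of 6 in Sca1-BCL6Δ B cells. The other 7 had between 0 and 5.41%.

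Imprinted control regions held molecules of both uniform kinds. Windows around 20 known regions (mm9) contained 30 shared positions in 10 of them. Of 1126 reads, 45.2% were fully methylated, 38.2% fully unmethylated, 10.3% had 1 methylated CpG, 3.73% had 1 unmethylated CpG and 2.58% had at least 2 of each (interval 1.80 to 3.67). Positions of 20 to 80% inside and outside the windows were then set side by side, again in classes from the other pair of libraries and without a test. Of HSPC reads at 27 positions inside, 2.4% of 250 (wild-type, 1.10 to 5.14) and 0.621% of 161 (Sca1-BCL6Δ, 0.110 to 3.43) had at least 2 of each, against 8.23 and 8.71% at 3453 positions outside. Of B cell reads at 25 positions inside, it was 2.33% of 430 (wild-type, 1.27 to 4.23) and 2.14% of 187 (Sca1-BCL6Δ, 0.835 to 5.37), against 5.42% (5.27 to 5.58) and 5.19% (4.99 to 5.40) at 6990 positions outside. The share was lower inside in each library, although the intervals overlap for Sca1-BCL6Δ B cells. With B cell reads in classes set by B cells themselves, the values outside were 11.3 and 10.2%. Uniform reads inside and outside were 85.2 and 70.6% in wild-type HSPCs, 90.7 and 72.5% in Sca1-BCL6Δ HSPCs, 80.7 and 75.8% in wild-type B cells, and 86.1 and 78.6% in Sca1-BCL6Δ B cells.

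The windows with most positions were those of Gnas-Nespas (7), Grb10 (6) and, with 4 each, Plagl1 and Nnat. At Gnas-Nespas, which controls transcripts of a G protein subunit, 134 of 286 reads were fully methylated, 102 fully unmethylated and 10 had at least 2 of each. At Grb10, which encodes an adaptor that restrains growth signalling, these were 124, 80 and 12 of 251. At Plagl1, a zinc finger factor, they were 70, 86 and 2 of 188. Fully methylated reads at Gnas-Nespas were 37 of 82 in wild-type HSPCs, 16 of 33 in Sca1-BCL6Δ HSPCs, 52 of 112 in wild-type B cells and 29 of 59 in Sca1-BCL6Δ B cells. At Grb10 they were 27 of 55, 24 of 39, 44 of 98 and 29 of 59, and at Plagl1 12 of 37, 16 of 41, 24 of 75 and 18 of 35. Both uniform states were thus present in every library at all 3 windows.

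Among 3555 promoter positions with at least 40 reads in all and 5 in each library, molecules with at least 2 CpGs of each state were absent from 2687 (75.6%) and made up 10% or more of the reads at 20. Only 6 positions had at least 25% of reads fully methylated and 25% fully unmethylated, and none of the 6 had a read with 2 of each. They were chosen by their read pattern, so their values are a description. Igf2r, an imprinted receptor gene, had 31 fully methylated and 13 fully unmethylated reads of 52. Its fully methylated reads were 6 of 10 in wild-type HSPCs, 4 of 6 in Sca1-BCL6Δ HSPCs, 12 of 25 in wild-type B cells and 9 of 11 in Sca1-BCL6Δ B cells. The count of 0 mixed molecules of that kind in 52 reads allows up to 5.77%. Hymai, a transcript of the Plagl1 region, had 15 and 19 of 40, and the promoter record of Commd1, which lay inside the window of its imprinted neighbour Zrsr1, had 26 and 18 of 49.

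The other 3 of these positions were at genes not among the imprinted genes listed. Tuba1a, an alpha-tubulin, had 26 fully methylated and 36 fully unmethylated reads of 69, and D130017N08Rik had 18 and 18 of 44. Trim26, a ubiquitin ligase, had 10 and 27 of 40. Its fully methylated reads were 3 of 5 in wild-type HSPCs, 1 of 8 in Sca1-BCL6Δ HSPCs, 4 of 16 in wild-type B cells and 2 of 11 in Sca1-BCL6Δ B cells. Both states therefore occurred in every library, although on few reads.

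**Figure D5:**
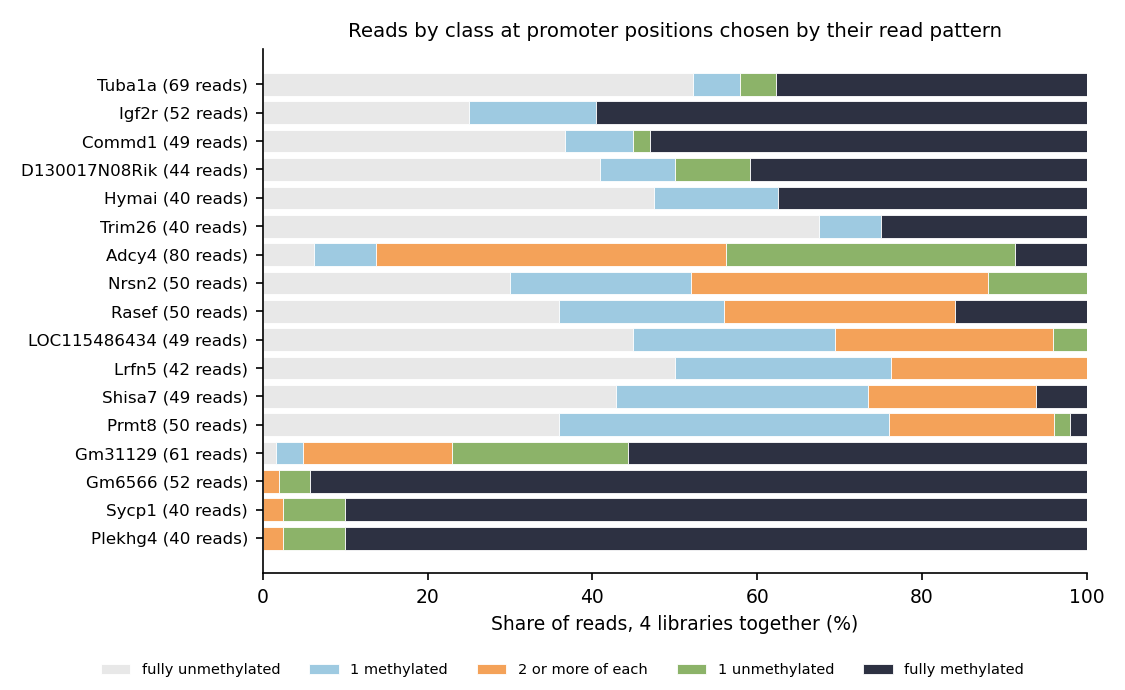
Share of reads (%, horizontal axis) in 5 read classes at 17 promoter positions chosen by their read pattern, with the 4 libraries together; the top 6 have both uniform states, the next 8 the most reads with at least 2 CpGs of each state, and the last 3 the most fully methylated reads. No read of the top 6 has 2 of each state, whereas Adcy4 has 42.5% and Nrsn2 36%.

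The promoters with most within-read mixing were of another kind. At Adcy4, an adenylyl cyclase gene, 42.5% of 80 reads had at least 2 CpGs of each state (interval 32.3 to 53.4). These were 15 of 35 in wild-type HSPCs, 2 of 5 in Sca1-BCL6Δ HSPCs, 14 of 32 in wild-type B cells and 3 of 8 in Sca1-BCL6Δ B cells. Its CpGs were methylated unequally, in wild-type B cells in 21 of 33 reads at the cut site, 27 of 33 at 6 bp, 19 of 30 at 9 bp, 25 of 32 at 12 bp and 14 of 33 at 15 bp. The CpG at 15 bp was the least methylated of the 5 in each library, with 7 of 35 reads in wild-type HSPCs, 1 of 5 in Sca1-BCL6Δ HSPCs and 2 of 8 in Sca1-BCL6Δ B cells. At Nrsn2, a neuronal membrane protein gene, 36% of 50 reads (24.1 to 49.9) were of this kind, 4 of 10, 0 of 8, 11 of 23 and 3 of 9 in the 4 libraries, and none of the 50 was fully methylated, which allows up to 6.0%. The remaining 6 of the 8 positions with the highest shares were at Rasef, LOC115486434, Lrfn5, Shisa7, Prmt8 and Gm31129, with 28, 26.5, 23.8, 20.4, 20 and 18.0%. None of these 6 is on the gene lists above. The 8 positions held 5 to 10 CpGs, whereas Igf2r and Trim26 held 4. A read with more CpGs can have at least 2 of each state in more ways. At positions under 20% such reads were 0.826% at 4 CpGs and 1.36% at 7 or more in wild-type HSPCs. Among listed genes Meioc, which acts in meiosis, had the highest share of such reads, 9 of 16 (56.25%), below the 40 reads asked for here.

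Fully methylated promoter molecules made up at least 70% of reads at 8 of the 3555 positions. Those with the highest shares were at Gm6566, Sycp1 and Plekhg4, with 49 of 52, 36 of 40 and 36 of 40 reads. At the Sycp1 position shown above the counts were 6 of 6 in wild-type HSPCs, 9 of 11 in Sca1-BCL6Δ HSPCs, 10 of 11 in wild-type B cells and 11 of 12 in Sca1-BCL6Δ B cells. No fully unmethylated read was seen at any of these 3 positions.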

How the data were processed

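RRBS was carried out on 4 pooled libraries, 1 per condition. Per the deposited methods text, the authors aligned reads without gaps to the 36-bp ends of predicted MspI and TaqI fragments of 40 to 220 bp with an in-house pipeline, with no version given in the sources used here; the build was mm9, per the submitters' processing notes. Per the file headers, the read tables give for each read the percent of methylated CpGs, a count of its CpGs and a score for its mean methylation, and the CpG tables give methylated and total read counts and the same kind of score. The deposited scores restate the methylated share, and the counts were used. The percent times the CpG count lay within 0.004 of a whole number in every read. DNA was amplified for 18 PCR cycles, per the labels' protocols.

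The members and gene lists were chosen with earlier results of these data known. Reads were keyed by their first base and strand. Means weight positions equally, and SEs are over 19 autosomes, so they do not measure variation between libraries. Positions with at least 10 reads in each library were tested with Fisher's exact test (SciPy 1.17.1) and Benjamini-Hochberg adjustment (statsmodels 0.14.6), and called at an adjusted p under 0.05 and at least 20 percentage points. The tests were checked on simulated data with changes far above the 20-point minimum only. How often smaller changes would be called was not assessed. Named by rule were called positions and the imprinted windows with most positions; other promoters were chosen after their values were seen. Promoter sequences are from RefSeq (GRCm38.p6) and were matched by CpG spacing, with no conversion of coordinates. Imprinted windows were approximate mm9 intervals written from general knowledge. Intervals are Wilson 95%, and a count of 0 allows 3 counts of the total. Alternatives changed the read and CpG minimums, the definition of mixed, depth, weighting and the position key.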

Additional observations from a re-analysis of the deposited data

Results flagged for a closer look

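The mean mixed share differed in direction between the genotypes when B cells were set against HSPCs. It was -0.65 percentage points in wild-type mice, from 16.98 to 16.3%, and 2.06 points in Sca1-BCL6Δ mice, from 10.2 to 12.3%, over the same 5616 positions. The difference between these 2 changes was not tested, since each condition was 1 library. Of the settings tried, 9 of 9 kept the positive sign in Sca1-BCL6Δ mice, with 0.218 to 2.50 points, whereas in wild-type mice 8 of 9 were negative, with a range of -1.15 to 0.0306 points.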

How the results depend on the processing

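No paired analysis was possible because each group was 1 library. Under the alternatives 56 recomputed values stayed close to those reported and 32 moved. With at least 5 reads (27627 positions) the mean mixed share was 17.4% in wild-type and 11.04% in Sca1-BCL6Δ HSPCs, the fully methylated share gave 1 call between the B cell libraries, and it gave 2 calls between the wild-type libraries. With at least 20 reads (35 positions) the mean mixed shares were 27.1 and 25.7% in the wild-type and Sca1-BCL6Δ HSPC libraries and 26.3 and 27.6% in the B cell libraries. The mixed share then gave 1, 2, 1 and 1 calls in the HSPC genotype, B cell genotype, wild-type and Sca1-BCL6Δ comparisons, and the fully methylated share 2 in the HSPC genotype comparison and 1 in each of the comparisons of B cells with HSPCs. With at least 5 CpGs per read the mixed share was 17.3% in wild-type HSPCs and 12.7% in B cells of Sca1-BCL6Δ mice. Where a mixed read needed 2 CpGs of each state it was 1.20, 0.727, 1.23 and 0.945%, with 0 calls by mixed and 1 by fully methylated share between the B cell libraries. Pooling all reads gave 17.8, 11.9, 17.8 and 13.8%. Between the B cell libraries both shares gave 0 calls with reads thinned to 10 and without the deepest positions (4885 left). With 10 reads in each library, even a complete switch at 1 position alone could not reach an adjusted p under 0.05. The 0 calls after thinning therefore say little about single positions. Keyed by the lower coordinate of the read, an alternative chosen after seeing the data, the mixed share gave 2 calls between the B cell libraries. The cause of these changes was not tested. The difference in mixed share between HSPC libraries stayed negative in 9 of 9 settings (-7.08 to -0.477 points), and between B cell libraries in 8 of 9, the exception being the 35 deepest positions. Depth limits what single positions can show, with medians of 6 to 13 reads.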
